A study of Drosophila melanogaster with 3 samples.

Results

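Whole larvae of Drosophila melanogaster with 3 X chromosomes, called metafemales, were set against larvae with the usual female pair, across the genes that fall outside the tissue and process lists in common use for this stage. The comparison uses 2 of the 3 pooled columns of the study, metafemale and female. The male column gives a further level for single genes and markers. It also enters the choice of transcript, the filter on mean level and the median-of-ratios scaling. Total RNA of the Metafemale, Female and Male groups came from larvae of the third instar kept at 20 degrees. The labels give no strain, cross or stock for any group, so a difference in genetic background cannot be told apart from the additional X. Each group had 3 biological repeats, which the authors combined into 1 deposited value per transcript. No difference below therefore has a replicate check, and no p-value can be given. Levels are counts per 1000000 transcript counts (CPM), and each gene is represented by the transcript whose mean over the 3 columns was highest. Of 14161 genes, 10942 had a mean of at least 1 CPM and were kept. Of these, 9763 lie outside 26 lists of the usual kind (muscle, cuticle, glue, ecdysone, immune, ribosomal, proteasome and similar genes), 1586 in the X-linked table and 8177 in the autosomal table. The kept genes include 1365 that had under 1 CPM in both metafemales and females and passed through the male column alone.

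In flies the X chromosome of males is transcribed at a raised rate by the male-specific lethal complex, which the roX RNAs assemble on that chromosome. Females lack the complex. An additional X in a female changes the dose of all X-linked genes at once while the autosomes stay diploid, so metafemales are a classical case for asking how transcript levels respond to an unbalanced chromosome dose. Metafemales develop slowly and survive poorly.

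The marker genes matched the group names. The 2 roX RNAs summed to 17.8 CPM in metafemales and 20.9 CPM in females, against 439 CPM in males. All 3 Y-linked fertility genes were listed at 0 in metafemales and summed to 0.155 CPM in females. The 4 testis markers summed to 0.708 CPM in metafemales and 3.17 CPM in females. Markers of tissue and stage differed between the compared groups. The 6 muscle markers summed to 18279 CPM in metafemales and 4994 CPM in females, the 6 salivary glue markers to 1799 CPM in metafemales and 10338 in females, and the 3 larval serum proteins to 24912 CPM in metafemales and 14260 in females. Of these, Lsp1alpha and Lsp1beta were higher, at ratios of 5.69 and 3.95, whereas Lsp2 had 5064 CPM in metafemales and 9444 CPM in females. Their part in the differences below was not tested, and in whole larvae fewer cells of a type and less RNA per cell cannot be told apart. Nor can a difference in stage within the third instar be told apart from the additional X. By inference from the low values, the metafemale libraries held 69.0 to 112 M transcript counts each and the female libraries 65.6 to 89.2 M. Among values below 0.05 CPM the deepest metafemale library gave 61.5% of the counts with 39.9% of the depth, and the deepest female library gave 31.9% with 38.9%. The 10 genes with the most counts took 14.1% of the metafemale column and 9.80% of the female column.

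Outside the lists, X-linked genes were as a group higher relative to autosomal genes in metafemales. The log2 fold change, taken on value + 1 CPM as metafemale over female, had a median of 0.02 for X-linked genes, with the middle 50% of genes between -0.21 and 0.35. For autosomal genes the median was -0.29, with the middle 50% between -0.68 and -0.01. The difference between the medians was 0.31. Over all kept genes, lists included, it was 0.32, and with no filter on low values 0.16, the autosomal median then being -0.14. A difference of at least 2-fold upward was found for 111 X-linked genes (7%) and 293 autosomal genes (3.58%), and one of at least 2-fold downward for 46 X-linked genes (2.9%) and 949 autosomal genes (11.6%). Over all kept genes these shares were 4.81% and 10.9%.

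The median of all kept genes was itself -0.22, so the split between higher and lower depends on the scaling. Dividing by the median of ratios shifted the log2 ratio of the groups by 0.41, and scaling on autosomal genes shifted it by 0.46. Over all kept genes, lists included, the X-linked and autosomal medians were 0.03 and -0.29 as deposited, 0.38 and -0.02 after the first scaling, and 0.42 and 0.00 after the second. Relative to the median of all kept genes, 165 X-linked genes were 2-fold higher (10.4%) and 29 were 2-fold lower (1.83%), and 430 autosomal genes were higher (5.26%) and 519 lower (6.35%). The corresponding background over all kept genes was 6.94% higher and 6.21% lower. X-linked genes above the median of all kept genes made up 75.5%, against 45.2% of autosomal genes.

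**Figure D1:**
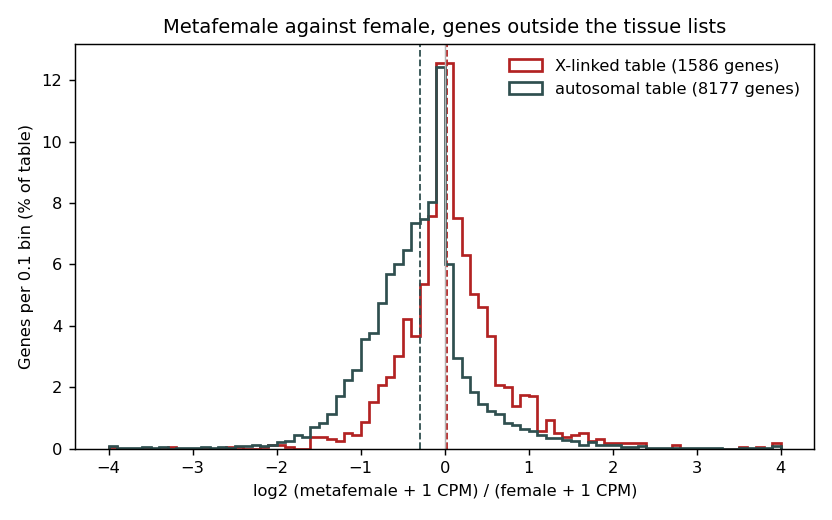
Distribution of the log2 fold change, metafemale over female on value + 1 CPM, for 1586 X-linked and 8177 autosomal genes outside the usual lists, as percent of genes per 0.1 bin. Dashed lines mark the medians, 0.02 and -0.29, and values beyond 4 are drawn in the outermost bins. From the 5th to the 95th percentile the X-linked distribution lies to the right of the autosomal one, and the distributions overlap widely.

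The distance between the tables was not a matter of a few strongly changed genes. Between the 5th and the 95th percentile, the X-linked log2 fold change was above the autosomal one by 0.31 to 0.49. By mean level, the difference of medians was 0.06 for genes of 1 to 3 CPM, where the added 1 CPM pulls values towards 0, 0.28 at 3 to 10 CPM, 0.42 at 10 to 30 CPM, 0.55 at 30 to 100 CPM, 0.32 at 100 to 300 CPM and 0.39 from 300 CPM upward. The last class holds 15 X-linked genes. The autosomal arms were close to each other, with a median of -0.29 on each of 2L, 2R, 3L and 3R, and -0.41 for the 67 genes on the small chromosome 4. Chromosome 4 genes had a higher median level, 42.8 CPM in females, so the added 1 CPM pulled them less towards 0. With nothing added, the median ratios were 0.713, 0.722, 0.734 and 0.727 on 2L, 2R, 3L and 3R, and 0.749 on chromosome 4. X-linked genes known by a number only had a median of 0.00 (715 genes), against 0.06 for the 871 X-linked genes with a name. In the autosomal table the medians were -0.18 for 3553 genes known by a number and -0.35 for 4624 named genes. That order depends on the added 1 CPM, since the numbered genes had a median of 5.97 CPM in females and the named ones 15.4 CPM. With nothing added, the median ratio of metafemale to female was 0.704 for numbered and 0.738 for named autosomal genes. Non-coding genes were few. None of the 15 X-linked ones passed 2-fold, and of the 47 autosomal ones 2 were higher and 8 lower. The X-linked ones had median levels of 0.151 CPM in metafemales and 0.282 CPM in females. With 1 CPM added, a gene under 1 CPM in both columns cannot pass 2-fold, so their count says little.

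Transcript length went with the fold change in both tables. Lengths are those of the longest spliced transcript in the supplied annotation and were found for 99.8% of kept genes. Autosomal genes under 750 bases had a median of -0.52 (678 genes), those of 750 to 1500 bases -0.42 (2227), those of 1500 to 3000 bases -0.22 (2977) and longer ones -0.28 (2280). The share of autosomal genes at least 2-fold lower was 27.6% in the shortest class and 5.53% in the longest. The X-linked medians over the same classes were -0.11, -0.04, 0.05 and 0.12, for 93, 341, 577 and 571 genes. In each class the X-linked median was the higher, by 0.41, 0.37, 0.27 and 0.40. Since short genes were lower as a class, some gene lists below are also read against genes of their members' own table and length class. List counts given with no such reading are not matched for length. The relation of length to fold change was looked at after the data had been seen.

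**Figure D2:**
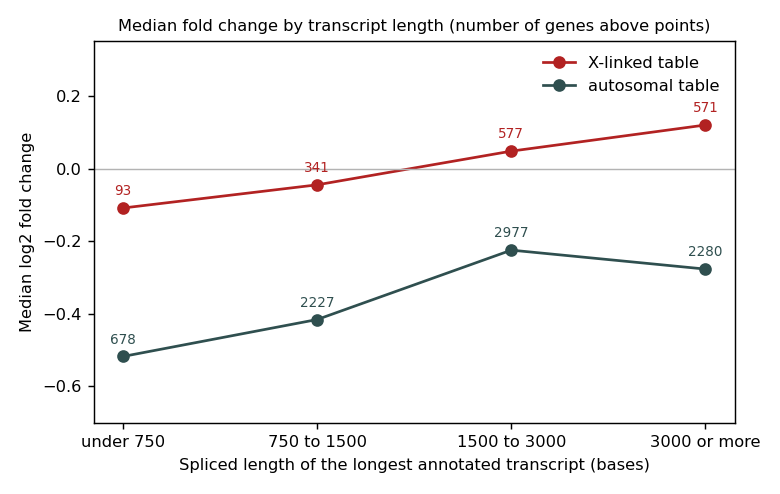
Median log2 fold change, metafemale over female, by the spliced length of the longest annotated transcript in bases, for X-linked and autosomal genes outside the usual lists, with the number of genes above each point. The X-linked line lies above the autosomal line by 0.27 to 0.41 in every class, and the shortest genes are lowest in both.

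Further lists of genes, 30 in all, covered processes outside the usual ones, and 29 of them had at least 5 kept members. As deposited, 8 of these 29 had a median above that of all kept genes. Members at either end of a list were named by a fixed rule, and other members named beside them, to show a pathway from its different sides, were chosen after their values were seen. Counts called rescaled are those after scaling by the median of ratios and on autosomal genes, in that order. As the background for the list counts, 4.81% of all kept genes were higher and 10.9% lower as deposited. After the first scaling 264 of 1734 X-linked and 718 of 9208 autosomal genes were higher, and 33 and 456 were lower. After the second, 290 and 752 were higher, and 32 and 422 were lower.

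**Figure D3:**
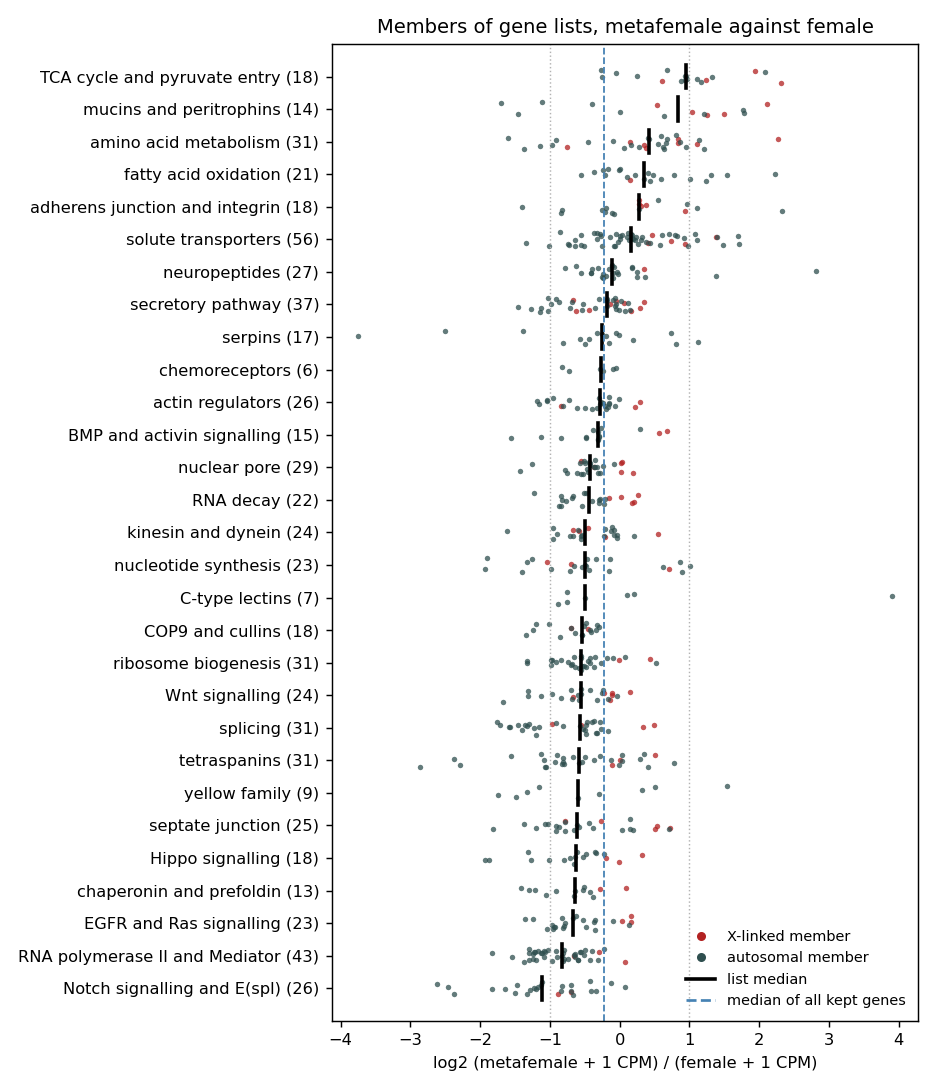
Log2 fold change, metafemale over female on value + 1 CPM, of every kept member of 29 gene lists, with the number of members in parentheses, X-linked and autosomal members in separate colours, black bars for list medians and a dashed line for the median of all kept genes, -0.22. Dotted lines mark 2-fold. The TCA cycle list lies farthest to the right, with a median of 0.95, and the Notch list farthest to the left, with -1.12.

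Genes of the tricarboxylic acid (TCA) cycle, the mitochondrial ring of reactions that oxidises acetyl-CoA, and of the entry of pyruvate into it were higher in metafemales. Among 18 genes, 7 passed 2-fold upward and none downward (rescaled 14 and 14 higher), with a median of 0.95. Relative to the median of all kept genes 12 were 2-fold higher. All 18 lay above the median of genes of their own table and length class. The enzyme at the start of the cycle, citrate synthase (kdn, X-linked), had 325 CPM in metafemales, 64.3 CPM in females and 54.1 CPM in males. Its ratio of metafemale to female was 5.05, with a 95% interval of 4.97 to 5.14 that covers counting error only, as do all intervals here. Aconitase (mAcon1) had 310 CPM in metafemales and 123 CPM in females. The catalytic subunit of the NAD-dependent isocitrate dehydrogenase (Idh3a, listed as l(1)G0156, X-linked) had 133 CPM in metafemales and 33.6 CPM in females, while its partner Idh3b had 64.7 CPM in metafemales and 32.6 in females. Malic enzyme (Men), which makes pyruvate from malate, had 531 CPM in metafemales and 124 CPM in females. The pyruvate dehydrogenase subunits Pdha and Pdhb had 121 and 53.01 CPM in metafemales, against 51.0 and 27.2 CPM in females. Not every member shared this. The succinyl-CoA synthetase subunit ScsbetaA had 87.9 CPM in metafemales and 90.8 CPM in females, and the cytosolic malate dehydrogenase Mdh1 had 278 CPM in metafemales and 333 in females. The 4 X-linked members had a median of 1.59 and the 14 autosomal members one of 0.93. Beside this, 12 of 30 kept muscle structure genes passed 2-fold upward and none downward, with a summed level of 27739 CPM in metafemales and 10402 CPM in females, and their part in the TCA values was not tested.

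**Figure D4:**
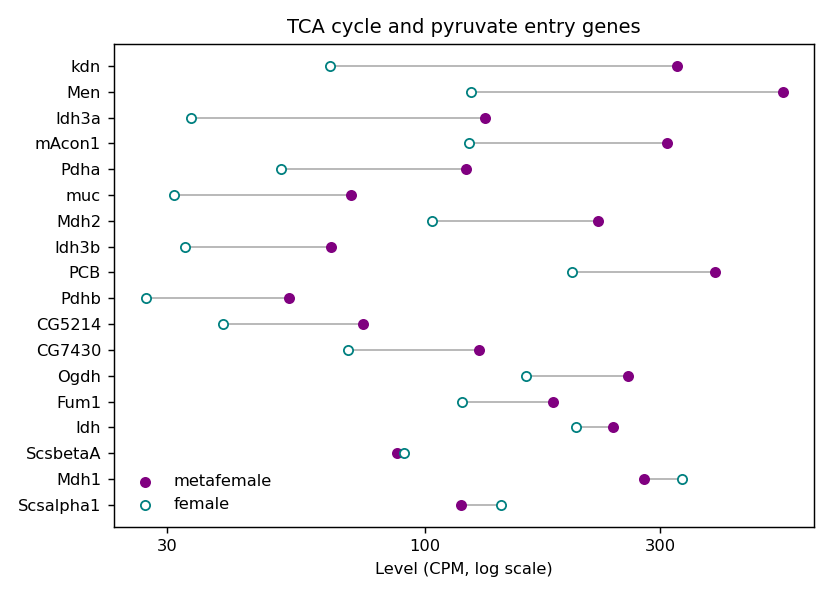
Levels of 18 TCA cycle and pyruvate entry genes in metafemale (filled) and female (open) larvae, in CPM on a log axis, ordered by fold change. The upper rows, from kdn with 325 CPM in metafemales and 64.3 in females downward, have the metafemale point to the right, and the lowest 3 rows have it at or to the left of the female point.

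Genes for the oxidation of fatty acids and for the breakdown of amino acids showed the same direction in part. Among 21 fatty acid oxidation genes, 5 passed 2-fold upward and none downward (rescaled 6 and 7 higher), with a median of 0.35. CG3902, an acyl-CoA dehydrogenase, had 131 CPM in metafemales and 27.1 CPM in females. The peroxisomal acyl-CoA oxidase Acox57D-d had 20.7 CPM in metafemales and 6.50 in females, and bubblegum (bgm), which activates very long chain fatty acids, had 57.5 CPM in metafemales and 22.5 in females. The carnitine palmitoyltransferase withered (whd), at the mitochondrial entry step, had 104 CPM in metafemales and 120 CPM in females. Of 31 amino acid genes, 4 were higher and 3 lower (rescaled 13 and 14 higher, 1 and 1 lower), with a median of 0.41. The higher members degrade amino acids. CG17896, the methylmalonate-semialdehyde dehydrogenase of valine breakdown (X-linked), had 240 CPM in metafemales and 49.1 CPM in females. Fumarylacetoacetase (Faa), the last step of tyrosine breakdown, had 5.34 CPM in metafemales and 1.87 in females, and the tryptophan dioxygenase vermilion (v, X-linked) had 17.1 CPM in metafemales and 7.36 in females. The lower members build amino acids. Glutamine synthetase 1 (Gs1) had 196 CPM in metafemales and 597 CPM in females, and the serine synthesis enzymes CG6287 and CG11899 had 25.7 and 28.2 CPM in metafemales, against 57.8 and 74.5 CPM in females. Outside the list, the X-linked gene Dbct (listed as CG5599), which encodes the acyltransferase core of the branched-chain ketoacid dehydrogenase, had 20.9 CPM in metafemales, 2.32 CPM in females and 1.11 CPM in males. D2hgdh (listed as CG3835, X-linked), for D-2-hydroxyglutarate dehydrogenase, had 282 CPM in metafemales, 53.1 CPM in females and 37.3 CPM in males.

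Nucleotide synthesis was divided. Among 23 genes, 1 passed 2-fold upward and 6 downward (rescaled 5 and 5 higher, 2 and 2 lower), with a median of -0.50. The lower members included dUTPase, with 16.4 CPM in metafemales and 64.2 CPM in females, and the purine enzymes ade3, with 41.0 CPM in metafemales and 110 in females, and ade5 (X-linked), with 90.7 CPM in metafemales and 187 in females. CG11089, the last step of purine synthesis, had 56.8 CPM in metafemales and 219 CPM in females, and its values are identical to those of its neighbour CG31381, so which of the 2 genes the reads belong to is uncertain. The higher member was CG17273, adenylosuccinate synthetase, with 169 CPM in metafemales and 83.8 in females. In pyrimidine metabolism the synthesis gene rudimentary (r, X-linked) had 82.2 CPM in metafemales and 49.9 CPM in females, and su(r) (X-linked), whose dihydropyrimidine dehydrogenase degrades pyrimidines, had 37.4 CPM in metafemales and 8.18 in females.

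Mucins and peritrophins, the glycosylated and chitin-binding proteins of gut lining and other surfaces, went in both directions. Of 22 genes listed, 14 were kept, and 7 were at least 2-fold higher and 3 lower (rescaled 8 and 8 higher, 2 and 2 lower), with a median of 0.83. With no filter on low values the list median was 0.09. Muc11A (X-linked) had 585 CPM in metafemales and 135 CPM in females, Muc68Ca had 346 CPM in metafemales and 101 in females, and Muc96D had 1107 CPM in metafemales and 478 in females. Mur89F was lower, with 3.29 CPM in metafemales and 12.9 CPM in females. Of the 5 X-linked members 4 were higher and none lower, and of the 9 autosomal members 3 were higher and 3 lower. Beside this, of 51 kept digestive enzyme genes 16 were higher and 4 lower, with a summed level of 21980 CPM in metafemales and 14743 CPM in females, and their part was not tested.

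Solute transporters and matrix adhesion genes leaned higher with few genes past 2-fold. Of 56 kept transporters of 61 listed, 7 were higher and 2 lower (rescaled 15 and 15 higher, 1 and 1 lower), with a median of 0.17. As deposited these are 12.5% and 3.57% of the list, against 4.81% and 10.9% of all kept genes. The organic anion transporter Oatp58Dc had 21.7 CPM in metafemales and 5.93 CPM in females, the neurotransmitter transporter family member inebriated (ine) had 21.1 CPM in metafemales and 5.81 in females, and the nutrient amino acid transporter NAAT1 (X-linked) had 52.05 CPM in metafemales and 19.3 in females. The eye pigment precursor transporters scarlet (st) and brown (bw), which both pair with white, differed in direction. Scarlet had 5.65 CPM in metafemales and 1.38 CPM in females, and brown had 2.43 CPM in metafemales and 7.71 in females. Of 18 adhesion genes, 2 integrin alpha subunits were higher and 1 gene was lower (rescaled 4 and 5 higher, 0 and 0 lower), with a median of 0.27. The integrin subunit alphaPS4 had 16.002 CPM in metafemales and 2.39 CPM in females, and alphaPS5 had 9.95 CPM in metafemales and 4.09 in females. On the cadherin side, E-cadherin (shg) had 30.3 CPM in metafemales and 54.6 CPM in females, and p120ctn, which binds its tail, had 35.2 CPM in metafemales and 94.6 in females.

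Among neuropeptide precursors, 27 of 31 were kept and 2 were at least 2-fold higher, under each scaling. Nplp2 had 695 CPM in metafemales, 98.0 CPM in females and a ratio of 7.09 (6.997 to 7.19), and Nplp4 had 113 CPM in metafemales and 42.7 in females. The other 25 members stayed within 2-fold on value + 1 CPM. With nothing added, Ptth had a ratio of 0.293 (0.234 to 0.362), from 0.429 CPM in metafemales and 1.47 CPM in females. Of 181 olfactory, gustatory and ionotropic receptor genes only 6 were kept, and none passed 2-fold on value + 1 CPM. With nothing added, Ir76a was 3.53-fold lower, Or43b 2.04-fold and Ir94d 7.13-fold, from 1.58, 3.43 and 0.0822 CPM in females. Ir94d was kept through the male column alone, at 4.12 CPM, and could not have passed. The remaining members, Ir75d, Ir51b and Ir62a, were within 2-fold on levels too.

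The list of Notch signalling genes, which holds pathway components as well as targets, had the lowest median of the lists. Notch is a receptor whose cleaved intracellular part acts with Su(H) to switch on the Enhancer of split, E(spl), genes, which encode repressors of neural fate and small Bearded-type proteins. Of 28 genes listed, 26 were kept, of which 14 were at least 2-fold lower and none higher (rescaled 9 and 9 lower), with a median of -1.12. Against genes of the same table and length class 8 remained 2-fold lower. Su(H) had 3.93 CPM in metafemales and 5.62 CPM in females, the ubiquitin ligases neur and mib1 had 9.94 and 20.6 CPM in metafemales, against 10.9 and 27.8 CPM in females, and the protease subunit presenilin (Psn) had 24.8 CPM in metafemales and 40.7 in females. Among Bearded-type genes of another cluster, Tom had 3.18 CPM in metafemales and 22.1 CPM in females, while Ocho, within 2-fold, had 1.55 CPM in metafemales and 2.24 CPM in females.

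The E(spl) locus on arm 3R holds 12 of these genes side by side, of which 11 were kept and 10 were at least 2-fold lower (rescaled 7 and 7). The 11 genes apart from m1 summed to 29.4 CPM in metafemales and 108 CPM in females, 3.66-fold lower. E(spl)malpha-BFM had 2.55 CPM in metafemales, 20.8 CPM in females and 24.9 CPM in males, 8.14-fold lower (7.51 to 8.83). E(spl)m2-BFM had 1.90 CPM in metafemales, 14.1 CPM in females and 14.6 CPM in males. Among the basic helix-loop-helix repressors, E(spl)mdelta-HLH had 0.827 CPM in metafemales and 4.73 CPM in females, E(spl)m7-HLH had 1.68 CPM in metafemales and 8.57 in females, E(spl)m8-HLH had 0.928 CPM in metafemales and 4.48 in females, and E(spl)mbeta-HLH had 9.49 CPM in metafemales and 21.6 in females. In the middle of the cluster stands m1 (Kaz-m1), which encodes a Kazal-type protease inhibitor and no Notch effector, with 144 CPM in metafemales, 136 CPM in females and 190 CPM in males. For each of the 10 lower genes the male level lay within 1.5-fold of the female level, a closeness not counted over all genes. Beside this, of 51 kept genes of imaginal disc patterning 19 were at least 2-fold lower and none higher, with a median of -0.84 and a summed level of 475 CPM in metafemales and 817 CPM in females. Of 45 neuronal and synaptic genes 4 were lower and 1 higher, with 629 CPM in metafemales and 988 in females in sum. The part of either tissue in the E(spl) values was not tested.

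**Figure D5:**
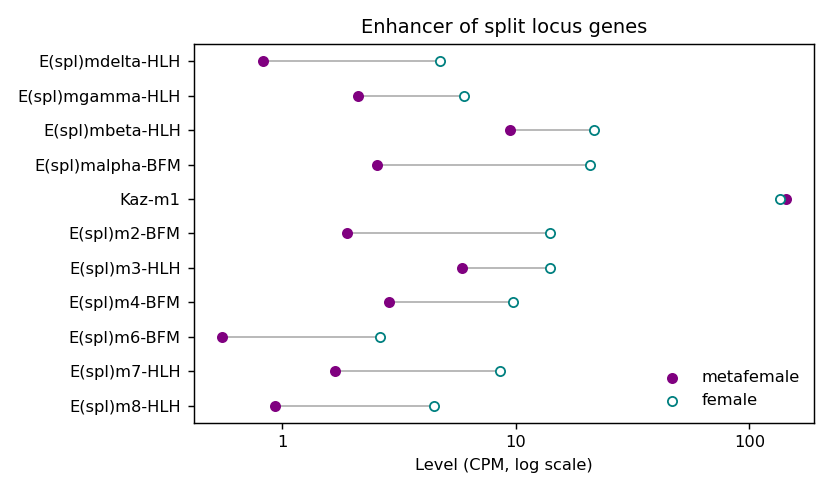
Levels of the 11 kept genes of the Enhancer of split locus, in their order along the chromosome, in metafemale (filled) and female (open) larvae, in CPM on a log axis. In 10 rows the metafemale point lies at least 2-fold to the left as deposited (7 after either rescaling), and in the row of Kaz-m1, at 144 CPM in metafemales and 136 in females, the points nearly coincide.

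Other signalling lists were below the median of all kept genes without reaching that extent. In the Hippo pathway, which restrains organ growth, 5 of 18 genes were lower (rescaled 2 and 2), and 3 of these 5 belong to its input from the cadherins Fat and Dachsous. Dachs (d) had 10.4 CPM in metafemales and 42.3 CPM in females, dachsous (ds) had 15.0 CPM in metafemales and 57.4 in females, fat (ft) had 23.9 CPM in metafemales and 60.7 in females and expanded (ex), which acts at the cell membrane, had 23.2 CPM in metafemales and 57.3 in females. The core kinases hpo and wts and the coactivator yki had log2 fold changes of -0.64, -0.48 and -0.34. In the Wnt list 4 of 24 were lower (rescaled 1 and 1), among them the receptor frizzled (fz), with 6.536 CPM in metafemales and 17.7 CPM in females. In the EGFR and Ras list 3 of 23 were lower (rescaled 0 and 0), which is 13.04% of the list against 10.9% of all kept genes. The ligand spitz (spi) had 24.1 CPM in metafemales and 63.6 in females. Septate junction genes included 5 of 25 lower and none higher (rescaled 2 and 1 lower, 2 and 2 higher), with a median of -0.60. Against genes of the same table and length class 1 of them was 2-fold lower. BMP and activin genes included 2 of 15 lower and none higher (rescaled 1 and 1 lower, 1 and 2 higher), with a median of -0.31. The lower ones make up 13.3% of the list, near the 10.9% of all kept genes. The BMP median lay above that of all kept genes in 3 of the 6 settings tried.

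In the machinery of transcription and splicing the lowest values belonged to small subunits. Of 43 subunits of RNA polymerase II and the Mediator complex, 18 were at least 2-fold lower and none higher, with a median of -0.83, but under either rescaling 2 were lower, and 2 against genes of the same table and length class. The largest polymerase subunit RpII215 (X-linked) had 81.1 CPM in metafemales and 76.9 CPM in females, and RpII140 had 39.5 CPM in metafemales and 46.3 in females. The small subunits Rpb10 and Rpb11 had 3.76 and 2.58 CPM in metafemales, against 10.7 and 7.79 CPM in females, and MED9 had 13.9 CPM in metafemales and 51.9 in females. Of 31 splicing genes, 12 were lower and none higher (rescaled 6 and 5), with a median of -0.56, and 8 remained 2-fold lower against genes of the same table and length class. The lowest was Sf3b6 (listed as CG13298), with 20.7 CPM in metafemales and 72.3 CPM in females. Several Sm ring proteins, which surround the spliceosomal RNAs, were also lower. SmB had 10.01 CPM in metafemales and 35.3 CPM in females, SmD1 had 6.35 CPM in metafemales and 21.1 in females, SmF had 5.58 CPM in metafemales and 18.6 in females and SmE had 11.3 CPM in metafemales and 30.7 in females. The helicase pea had 8.88 CPM in metafemales and 10.1 in females. Chaperonin and prefoldin genes included 4 of 13 lower (rescaled 1 and 1) and COP9 signalosome and cullin genes 4 of 18 (rescaled 0 and 0). No member of either list remained 2-fold lower against genes of the same table and length class. Lists for ribosome biogenesis (2 of 31 lower), nuclear pore (2 of 29), RNA decay (1 of 22) and motor proteins (1 of 24) had shares below the 10.9% of all kept genes. In the secretory pathway 6 of 37 were lower (rescaled 1 and 1), and among actin regulators 4 of 26 (rescaled 0 and 0). For both, the side of the all-gene median on which the list median fell changed with the setting. Neither list kept a gene 2-fold lower against genes of the same table and length class.

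Pigment and surface protein families held single genes with large differences. Of 9 kept yellow family genes of 14, 4 were lower and 1 higher (rescaled 2 and 2 lower, 1 and 1 higher). Yellow-c had 7.75 CPM in metafemales and 28.3 CPM in females, and yellow-f2 had 7.45 CPM in metafemales and 1.91 in females. Black (b), the decarboxylase that makes beta-alanine, had 2.85 CPM in metafemales, 39.5 CPM in females and 56.3 CPM in males. Ebony (e), which couples beta-alanine to dopamine in cuticle tanning, had 1.10 CPM in metafemales, 22.995 CPM in females and 218 CPM in males. Of 31 kept tetraspanins, membrane proteins with a conserved fold, 8 were lower and none higher (rescaled 4 and 4 lower, 1 and 1 higher). Against genes of the same table and length class 4 were 2-fold lower and 1 was 2-fold higher. Of the Tsp42E genes, Tsp42Ej, Tsp42Ek and Tsp42Ep had 3.31, 13.1 and 14.1 CPM in metafemales, against 20.1, 72.2 and 109 CPM in females. Tsp42Eg and Tsp42Ed went the other way within 2-fold, with 17.0 and 41.9 CPM in metafemales, against 9.52 and 31.2 CPM in females. Of 17 kept serpins of 28, 1 was higher and 3 lower (rescaled 3 and 3 higher, 2 and 2 lower). Spn43Aa had 1.11 CPM in metafemales and 27.3 CPM in females, while its neighbour in name Spn43Ab had 69.1 CPM in metafemales and 41.3 in females. Of 7 kept C-type lectins, lectin-24A was higher, with 51.4 CPM in metafemales and 2.50 CPM in females, and the other 6 stayed within 2-fold.

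Genes at the extremes outside the lists were taken by a fixed ranking on size, 71 in all, of which 70 passed 2-fold and 64 still did under both rescalings. Since the genes were chosen for large fold changes in these same columns, both counts follow largely from the choice. The largest differences belonged to genes known by a number only, among them CG32603 and CG11350 on the higher side and CG2444 and CG34193 on the lower. X-linked genes on the higher side included vanin-like, related to enzymes that release pantothenate, with 117 CPM in metafemales and 16.6 CPM in females, the Toll pathway protease homologue spheroide, with 67.0 CPM in metafemales and 18.0 in females, the sarcoglycan Scgdelta of muscle membranes, with 5.55 CPM in metafemales and 1.07 in females, and the glutathione transferase Mgstl, with 55.8 CPM in metafemales and 17.6 in females. The genes CG14419 and CG3106 had 31.8 and 42.3 CPM in metafemales, against 1.44 and 2.81 CPM in females. X-linked genes on the lower side included the sulfiredoxin Srx (listed as CG6762), with 17.6 CPM in metafemales and 103 in females, the proneural factor achaete (ac), with 0.185 CPM in metafemales and 2.40 in females, the transcription factor Sp1, with 4.997 CPM in metafemales and 15.97 in females, and the peptide transporter yin, with 9.04 CPM in metafemales and 39.2 in females. The carboxypeptidase Nna1 appears under 2 gene names, CG32627 with 40.6 CPM in metafemales and 186 CPM in females and CG32628 with 4.44 CPM in metafemales and 19.7 in females.

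Autosomal genes on the higher side included pericardin (prc), a collagen-like matrix protein of the heart, with 19.6 CPM in metafemales and 0.702 CPM in females, a ratio of 27.9 (23.9 to 33.0). The vitamin transporter Smvt had 19.9 CPM in metafemales and 1.67 in females, the flavin monooxygenase Fmo-2 had 16.8 CPM in metafemales and 2.42 in females, and aldehyde dehydrogenase (Aldh) had 356 CPM in metafemales and 76.3 in females. On the lower side, slow border cells (slbo), a C/EBP transcription factor, had 0.697 CPM in metafemales and 20.2 CPM in females, a ratio of 0.0344 (0.0295 to 0.0398). Windbeutel (wbl), a protein of the endoplasmic reticulum, had 1.91 CPM in metafemales and 21.5 in females, crammer (cer), a cathepsin inhibitor, had 45.6 CPM in metafemales and 358 in females, and the secreted metalloprotease sona (listed as CG9850) had 14.3 CPM in metafemales and 179 in females. The non-coding RNA pncr015:3L had 0.0168 CPM in metafemales, just over the 0.0112 CPM that 3 counts give, and 12.04 CPM in females. On levels, with nothing added, the male column lay within 2-fold of the female column for 14 of the 18 X-linked genes on the higher side. It did so for 16 of the 17 on the lower side, and for 12 of 18 and 14 of 18 among autosomal genes. The same share over all kept genes was not taken, so these counts do not set the chosen genes apart.

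Neighbouring genes past 2-fold in 1 direction formed 16 runs of at least 4 kept genes, 3 higher and 13 lower, all on arms 2R, 3L and 3R, with 75 of 10852 placed genes. With genes of identical values counted once there were 3 higher and 11 lower runs. The balance turned with scaling, to 10 and 12 higher and 6 and 6 lower runs when rescaled. The 2 E(spl) runs hold 4 and 6 genes, on either side of m1. A run on 3R holds the aminopeptidase-family genes CG8773, CG8774 and CG32473, with 225, 167 and 210 CPM in metafemales, against 63.6, 12.7 and 64.6 CPM in females, and their neighbour CG8630, with 20.7 CPM in metafemales and 7.77 in females. Another family member on the arm, CG31343, had 572 CPM in metafemales and 57.6 CPM in females. A further run on 3R holds the lipase-family genes CG17191, CG6283, CG6277 and CG6271, with 1.28, 4.69, 1.56 and 0.193 CPM in metafemales, against 9.94, 56.2, 30.05 and 8.99 CPM in females. In males these 4 genes had 1.75, 14.4, 12.1 and 0.716 CPM, below the female levels. A run on 3L holds Acbp5, an acyl-CoA binding protein, with 29.2 CPM in metafemales and 11.0 in females, and the numbered genes CG13311, CG34426 and CG13312, all higher. The run of tal-1A, tal-2A, tal-3A and tal-AA is 1 RNA counted under 4 names, with 11.1 CPM in metafemales and 38.4 CPM in females, and 219 kept genes in all share every value with another gene. The strand was not stated to be used in counting, so overlapping and antisense neighbours cannot be told apart.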

How the data were processed

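The deposited values are fractions, 1 per transcript and group, in which the authors combined 3 biological repeats; per the labels, TRIzol was used for total RNA and a TruSeq RNA kit for the libraries. TopHat, HTSeq and the build dm3 are named in the submitters' processing notes; versions, annotation and strand setting are not stated in what was used here. Fractions were multiplied by 1000000 (CPM) with Python 3.11.15, pandas 2.3.3 and numpy 2.4.6. Of 22738 transcripts, 21508 were matched to the supplied Release 6 annotation by accession, 1120 by name and 110 not at all. The annotation gave symbols, arms, order and lengths, and no coordinates were used. In 158 cases several gene names are now 1 gene, and 28 genes of the autosomal table lie on the X or the Y. Kept genes had a mean of at least 1 CPM, fold changes were taken on value + 1 CPM, and a call needed 2-fold. Exact binomial 95% intervals of a ratio (SciPy 1.17.1) cover counting error only and rest on effective depths of 269 M counts (metafemale) and 226 M (female), inferred from the steps among values below 0.05 CPM, which were whole combinations of 3 step sizes in 100% of 2170 and 1749 values, within a relative tolerance of 1e-05. The reads carry no molecular identifiers, so they are not independent molecules.

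Named genes were, per table and direction, the 8 with the largest fold change, the 8 largest with a name, the 6 largest with a mean of at least 100 CPM, the ends of each list, and runs of at least 4 neighbours. The genes and lists were chosen with earlier results of these data known. The calculation was tested on simulated data. Alternatives were 2 other scalings, 0.1 CPM added, other filters, sums over transcripts, the annotation's chromosomes and a 1.5-fold call.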

Additional observations from a re-analysis of the deposited data

How the results depend on the processing

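Over all kept genes as deposited, 134 X-linked genes were 2-fold higher and 58 lower, 392 autosomal genes were higher and 1130 lower, with medians of 0.03 and -0.29 that differed by 0.32. With median-of-ratios scaling the counts were 264 and 33 (X-linked) and 718 and 456 (autosomal), the medians 0.38 and -0.018 and their difference 0.40. With scaling on autosomal genes they were 290 and 32, 752 and 422, with medians of 0.42 and 0.00 (1.48e-05) and a difference of 0.42. With 0.1 CPM added, 88 X-linked genes were lower, the autosomal median was -0.39 and the difference 0.44. With no filter the autosomal median was -0.14 and the difference 0.16. For genes of at least 10 CPM, 84 X-linked genes were higher and 36 lower, 245 autosomal genes were higher, the medians were 0.072 and -0.38 and the difference 0.45. With the filter on the metafemale and female columns alone, chosen after seeing the data, the medians were 0.065 and -0.37 and the difference 0.43. Within the 4 length classes, also chosen after seeing the data, the difference was 0.41, 0.37, 0.27 and 0.40. Of the 122 named genes, none of those past 2-fold changed sign, which their choice by large fold changes made likely. The balance of autosomal calls turned with scaling. Some list medians changed sign, such as BMP (0.10 and 0.14 rescaled), actin (0.11 and 0.16) and secretory genes (0.22 and 0.27). Scaling moved 107 and 109 of 122 named genes and 21 and 23 of 29 list medians beyond the interval set for them (counting error for genes, an interval of the median over members for lists), the added 0.1 CPM moved 90 genes and sums over transcripts 8. No paired analysis was possible because each group is 1 pooled column, and no repeat could be left out. Without values per repeat the spread between larvae is unknown, so no depth can show that a difference exceeds it.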
